A study of Mus musculus with 18 samples.

Results

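Livers of young male mice fed a high-fat diet (HFD) were compared with livers of young male mice fed a normal diet (ND). The comparison used 9 of the 18 libraries of the series, chosen by the age and diet in their labels, with 5 young HFD and 4 young ND libraries. The labels give C57BL6 for all mice without a substrain, the methods name more than one source of animals, and the mice carried no engineered allele named in the labels and received their diet for 9 weeks. Young mice were 5 months old when the diets began. The HFD was Test Diet 58Y1, with 60% of calories from fat. The sources name different normal diets, a Teklad Global chow in the series record and the low-fat diet 58Y2 in the methods, so the ND group is defined here only by its label. Each library was poly(A) RNA of whole liver. The labels number the samples but do not name mice or cages, so a p-value measures the spread between these libraries. Time of day and fasting at collection were not found in the sources used here. The other 9 libraries, from old mice on the same diets (5 old ND and 4 old HFD), entered the statistical model and a test of whether the diet difference changed with age. The old mice differed from the young at genes known to differ between C57BL/6 substrains. Nnt, a mitochondrial transhydrogenase, was at 162 to 207 CPM (the read count scaled to library size) in the 9 young and 46.0 to 64.3 CPM in the 9 old libraries, and Wdfy1 at 41.6 to 53.0 and 15.3 to 18.0 CPM. Among the young libraries both genes overlapped between the diets. Entpd4, the other listed substrain marker, was at 37.3 to 41.6 CPM in young HFD and 0 to 0.0375 CPM in young ND, and at 60.4 to 80.9 and 0 to 0.0362 CPM in old HFD and ND. It is not counted alike, since its sequence is shared in full with another locus and the HFD and ND tables list different transcript coordinates for it. Old HFD replicate 4 stood apart in neutrophil markers, with a summed level of 369 CPM against 4.73 to 11.3 CPM in the other old libraries.

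A liver given much dietary fat takes up fatty acids, burns them in mitochondria and peroxisomes, turns some into ketone bodies, and stores the rest as triglyceride in lipid droplets. The same hepatocytes break down amino acids, make bile acids from cholesterol and inactivate foreign compounds, and part of this gene programme differs between male and female mice. Long feeding of fat can bring macrophages into the liver and start stellate cells making collagen, the first steps of steatohepatitis and fibrosis.

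Diet could not be told apart from the way the reads were counted. The HFD libraries stood in one count table, made without a strand option, and the ND libraries in another, made from reads on the strand of the gene only. A gene with a neighbour on the opposite strand, or with a close paralogue, can therefore differ between the tables through counting. Results were read from the 7530 tested genes that were counted alike. These genes had no annotated exon on the opposite strand, shared under 5% of their 31-base words with another locus, and had the same transcript coordinates in both tables. A stricter set of 2549 genes shared under 1% and had no gene on the opposite strand within 5000 bases. Genes lower on HFD were given most weight, since reads from an opposite-strand gene, counted in the HFD table alone, would act the other way. For paralogues no direction was established. Total counts were 23642964 to 36427856 in young HFD and 20253719 to 26461664 in young ND. On genes counted alike, the first principal component of the 9 libraries carried 55.6% of the variance and placed every HFD library on one side and every ND library on the other. The second component carried 8.84%.

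To ask how much of the liver transcriptome differed between the diets, all 14275 tested genes were fitted in one model and called at an adjusted p (Benjamini-Hochberg, edgeR quasi-likelihood test) under 0.05. Over all tested genes 2126 were higher on HFD (14.9%) and 581 were lower (4.07%). The calls were more evenly split in the genes counted alike, of which 414 were higher (5.5%) and 364 were lower (4.83%), with a median log2 fold change of 0.01. Scaling the libraries over all genes instead turned that split to 341 higher and 557 lower. Fitted and adjusted over genes counted alike only, 270 of them were higher and 226 lower. Of the called genes counted alike, 357 of the 414 higher and 311 of the 364 lower had no overlap in CPM between the 5 HFD and the 4 ND libraries. Over all 7530 genes counted alike, called or not, 692 had every HFD library above every ND library (9.19%) and 663 had every one below (8.8%). A difference of more than 2-fold was seen for 169 of the higher and 90 of the lower genes. Among 1473 genes with shared sequence 606 were higher and 53 lower, and among 3664 genes with an opposite-strand exon 586 were higher and 112 lower. In the stricter set the counts were 136 higher and 151 lower. Without old HFD replicate 4, an alternative added after seeing the data, 491 genes counted alike were higher (6.46%) and 459 lower (6.04%). Genes listed with under 200 bases lay mostly on one side. Of 83 such genes tested and counted alike, 56 were lower and 2 higher, and 51 of the 56 were named as microRNA genes. Tested without genes under 200 bases, 397 genes counted alike were higher and 313 lower.

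**Figure D1:**
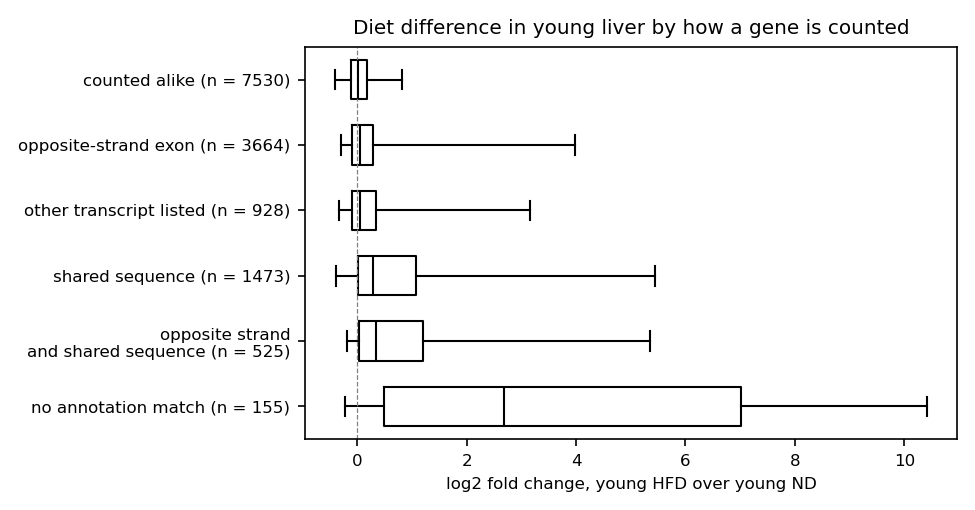
Log2 fold change (x axis, young HFD over young ND) of tested genes by how they are counted, with n genes in each class. Boxes span the quartiles with the median as a line, and whiskers run from the 5th to the 95th percentile. The 7530 genes counted alike centre on 0.01, whereas genes with shared sequence centre on 0.30 and genes with no annotation match on 2.69.

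The genes with the highest fold change were not those safest to read. Of the 10 highest genes counted alike, Col1a1 alone was in the stricter set. Tmem206, which encodes a proton-activated chloride channel, was at 95.9, 94.4, 85.9, 85.6 and 88.9 CPM in young HFD replicates 1 to 5 and at 2.84, 3.18, 2.69 and 2.59 CPM in young ND replicates 1 to 4. Its log2 fold change (HFD over ND, ± standard error throughout) was 5.00 ± 0.15, and in old liver it was 4.45 ± 0.13. Fads3, a relative of the fatty acid desaturases, rose by 3.71 ± 0.25 in young and 2.57 ± 0.23 in old liver. Neither gene was in the stricter set, and whether counting made part of these differences was not tested.

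The gene for the carnitine palmitoyltransferase that admits long-chain fatty acids to mitochondria rose in young liver on HFD. Cpt1a (chromosome 19, bases 3323301 to 3385733 of mm10) was at 781, 818, 762, 761 and 747 CPM in the HFD libraries and at 463, 461, 469 and 444 CPM in the ND libraries. The groups were far apart and tight, and the log2 fold change was 0.75 ± 0.13 (adjusted p = 0.00016, edgeR). Fgf21, a hormone that the liver releases under fasting, protein restriction and fat loading, was at 5.01, 4.95, 5.44, 5.04 and 6.00 CPM on HFD and at 2.50, 1.05, 1.48 and 1.50 CPM on ND. It rose by 1.70 ± 0.45 (adjusted p = 0.01). These were the 2 of 16 mitochondrial oxidation and ketogenesis genes counted alike that passed the test, where 5.5% of all genes counted alike were higher. Of the 16, 11 had a positive fold change, with a median of 0.22. Fitted to the young libraries alone, a model that called 11.1% of genes counted alike higher and 10.3% lower, 8 of the 16 were higher. Without old HFD replicate 4 the number was 6 of the 16 (6.46% over all). The summed level of the 16 genes was 7658.5 to 8576 CPM on HFD and 6376 to 6998 CPM on ND. Pdk4, which holds back glucose oxidation, was not called (-0.67 ± 0.34, adjusted p = 0.2).

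Peroxisomal genes moved in both directions. Abcd2, a peroxisomal carrier of very long-chain acyl-CoA that is also more abundant in female liver, was at 102, 65.6, 61.7, 68.1 and 46.7 CPM on HFD and at 21.6, 16.8, 10.5 and 16.0 CPM on ND. Its lowest HFD library exceeded its highest ND library, and it rose by 2.09 ± 0.37 (adjusted p = 0.00049, edgeR). It was the 1 of 12 listed genes counted alike that rose, and 3 fell (5.5% and 4.83% over all genes counted alike). Those were Nudt7 (-0.70 ± 0.18, adjusted p = 0.0087), which breaks down acyl-CoA, the carrier Slc25a17 (-0.37 ± 0.08, adjusted p = 0.0025) and catalase, Cat (-0.38 ± 0.12, adjusted p = 0.036). Cat lost its call without young HFD replicate 1, 3, 4 or 5 or without young ND replicate 2, 3 or 4 (adjusted p from 0.057 to 0.096). The summed level of the 12 genes was lower on HFD, 6016 to 6881 CPM against 7179 to 7889 CPM, and Cat contributed the largest share of those counts. The median fold change of the 12 was 0.08. Without old HFD replicate 4, 3 of the 12 were higher (6.46% over all), the added genes being Vnn1 (1.01, adjusted p = 0.018) and Ech1 (0.37, adjusted p = 0.032).

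Some genes for making and storing fat were higher on HFD. Fads2 and Fads1, the desaturases that begin the synthesis of polyunsaturated fatty acids, were the 2 of 10 fatty acid synthesis genes counted alike that passed the test, both higher, where 5.5% of all genes counted alike were. Fads2 was at 748, 682, 749, 711 and 727 CPM on HFD and at 422, 347, 325 and 378 CPM on ND, a log2 fold change of 0.98 ± 0.23 (adjusted p = 0.0046, edgeR). Fads1 rose by 0.54 ± 0.15 (adjusted p = 0.016), a call lost without young ND replicate 2 (adjusted p = 0.056) or 3 (adjusted p = 0.071). Fasn, the fatty acid synthase, varied within both groups. It was at 1743, 1326, 2683, 2099.7 and 2576 CPM on HFD and at 2711, 1492, 1087 and 3174 CPM on ND, so the groups overlapped throughout and the fold change of -0.02 ± 0.41 had no stable sign. Mfsd2a, a carrier of lysophosphatidylcholine with polyunsaturated chains, was at 143, 128, 152, 103 and 110.1 CPM on HFD and at 27.5, 45.3, 14.0 and 30.4 CPM on ND, and it rose by 2.12 ± 0.46 (adjusted p = 0.0029). Scd1, another desaturase, whose sequence is shared with its paralogues, was not called (-0.80 ± 0.39, adjusted p = 0.18).

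Of 16 lipid droplet and fat storage genes counted alike, 2 rose (5.5% over all genes counted alike) and 13 had a positive fold change, with a median of 0.30. Vldlr, the receptor for very low-density lipoprotein, was at 15.1, 13.9, 12.6, 10.3 and 11.2 CPM on HFD and at 5.11, 5.45, 6.83 and 4.91 CPM on ND. These values do not overlap, but at a log2 fold change of 1.18 ± 0.38 the call was narrow (adjusted p = 0.04, edgeR). It was lost without young HFD replicate 1, 2, 3 or 5 or without any 1 of the young ND replicates, with adjusted p from 0.053 to 0.11. Hsd17b13, a lipid droplet enzyme, was also narrow (0.47 ± 0.14, adjusted p = 0.026) and was lost without young HFD replicate 1 or 3 or any 1 young ND replicate, with adjusted p from 0.053 to 0.087. The list therefore held no called gene without young HFD replicate 1 or 3 or without any 1 of the young ND replicates. Fitted to the young libraries alone, 5 of the 16 were higher (11.1% over all), and without old HFD replicate 4 the number was 4 (6.46% over all). Cidec and Cidea, which enlarge lipid droplets, had higher means on HFD that did not pass. Cidec was at 43.7, 23.5, 22.6, 19.7 and 29.1 CPM on HFD against 7.76, 3.36, 2.69 and 9.00 CPM on ND, with no overlap (2.28 ± 0.83, adjusted p = 0.071), and without old HFD replicate 4 it was called (2.28, adjusted p = 0.015). Cidea ranged from 0.906 to 9.78 CPM on HFD and from 0.266 to 2.40 CPM on ND (2.22 ± 1.32, adjusted p = 0.29).

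Fgf21, Vldlr and Atf3, a stress-induced transcription factor, all rose and all carry the letters TGATGCAA upstream of the gene. These letters are the element bound by C/EBP and ATF family factors in the response to amino acid shortage and endoplasmic reticulum stress. Atf3 was at 3.74, 1.65, 2.02, 2.17 and 1.69 CPM on HFD and at 0.578, 0.954, 0.911 and 0.675 CPM on ND (1.53 ± 0.32, adjusted p = 0.0015, edgeR). Inhbe, a liver hormone of the activin family that was picked after its values were seen, was at 146, 97.7, 91.9, 111 and 109.7 CPM on HFD and at 55.2, 58.6, 78.8 and 92.0 CPM on ND (0.64 ± 0.20, adjusted p = 0.031). Its lowest HFD and highest ND library overlapped narrowly, and the call was lost without young HFD replicate 1, 4 or 5 or young ND replicate 1, 2 or 3 (adjusted p from 0.052 to 0.12). The 250 bases before each transcript start are shown 5′ to 3′ on the strand of the gene, from RefSeq and GRCm38.p6, because they are the stretch these genes were searched in. Capitals mark the element, which reads TTGCATCA on these strands, and in Fgf21 also the E-box CACGTG. The windows are chr7:45615491-45615740 (minus strand) for Fgf21, chr19:27216770-27217019 (plus) for Vldlr, chr1:191183334-191183583 (minus) for Atf3 and chr10:127351849-127352098 (minus) for Inhbe.
Fgf21: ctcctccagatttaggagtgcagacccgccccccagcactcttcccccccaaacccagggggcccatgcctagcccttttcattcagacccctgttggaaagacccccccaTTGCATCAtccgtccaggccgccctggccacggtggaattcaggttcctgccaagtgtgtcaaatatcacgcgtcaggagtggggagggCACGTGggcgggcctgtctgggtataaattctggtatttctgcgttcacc
Vldlr: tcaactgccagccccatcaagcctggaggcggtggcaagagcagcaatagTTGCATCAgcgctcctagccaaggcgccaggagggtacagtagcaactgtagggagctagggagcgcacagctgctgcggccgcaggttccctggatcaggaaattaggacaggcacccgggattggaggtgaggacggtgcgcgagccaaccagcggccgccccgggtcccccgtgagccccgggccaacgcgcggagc
Atf3: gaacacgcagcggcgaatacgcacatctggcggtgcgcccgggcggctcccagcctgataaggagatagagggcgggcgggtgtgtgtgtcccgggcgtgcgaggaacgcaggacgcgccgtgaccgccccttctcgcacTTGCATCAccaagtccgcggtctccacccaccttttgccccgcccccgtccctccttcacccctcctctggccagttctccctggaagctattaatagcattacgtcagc
Inhbe: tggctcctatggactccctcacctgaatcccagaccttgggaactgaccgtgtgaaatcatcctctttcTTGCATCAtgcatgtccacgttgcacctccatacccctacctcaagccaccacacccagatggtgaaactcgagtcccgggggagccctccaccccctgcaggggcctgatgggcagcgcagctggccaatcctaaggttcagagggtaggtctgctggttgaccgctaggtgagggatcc

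The element begins 139 bases upstream of the Fgf21 start, 200 upstream of Vldlr, 110 upstream of Atf3 and 181 upstream of Inhbe. Both strands were searched for TGATGCAA and for CACGTG, motifs picked after values were seen. TGATGCAA was present in 10 of 316 windows of genes counted alike and called higher (3.16%), in 5 of 246 windows of those called lower (2.03%), in 45 of 5746 windows of all tested genes counted alike (0.783%) and in 260 of 32851 windows of all genes (0.792%). The genes shown are all among the 10 called higher. The 5 called lower were Tars (-0.48 ± 0.07, adjusted p = 5.9e-05, edgeR), Serpinf1 (-0.36), Samd8 (-0.37), Rhot2 (-0.14) and 1810008I18Rik (-0.76). CACGTG was present in 10.4% of windows of higher genes, 6.10% of lower genes, 9.75% of tested genes counted alike and 6.02% of all windows. These shares describe letters in a window, not binding. Of the 20 members of the stress list counted alike, Atf3 alone rose and 1 fell (5.5% and 4.83% over all genes counted alike), with a median fold change of -0.08. Of the members not counted alike, Ddit3, another stress-induced transcription factor, was called higher (0.53 ± 0.11, adjusted p = 0.0015, edgeR), at 7.80 to 10.2 CPM on HFD and 5.06 to 6.94 CPM on ND, and so was Derl1 (0.24 ± 0.05, adjusted p = 0.0015). The member counted alike that fell was Ern1, a sensor of unfolded protein (-0.58 ± 0.14, adjusted p = 0.0059, edgeR). In the young libraries alone 1 of the 20 was higher and 4 were lower (11.1% and 10.3% over all).

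Genes for the breakdown of amino acids were lower on HFD. Of 31 urea cycle and amino acid genes counted alike, 11 fell, where 4.83% of all genes counted alike did, and 28 had a negative fold change, with a median of -0.28. Cth, which makes cysteine from cystathionine, was at 238, 299, 244, 280.4 and 271 CPM on HFD and at 479.5, 733, 668 and 795 CPM on ND. Every HFD library lay below every ND library, and Cth (chromosome 3, bases 157894248 to 157925063) fell by 1.33 on the log2 scale (SE 0.17, adjusted p = 5.2e-06, edgeR). Cps1, the entry enzyme of the urea cycle and a gene of the stricter set (chromosome 1, bases 67123027 to 67231267), was at 2564, 4398, 3775, 4226 and 3944 CPM on HFD and at 5344, 6412, 6402 and 6387 CPM on ND. Young HFD replicate 1 was the lowest and young ND replicate 1 the lowest of its group, yet the groups did not overlap (-0.70 ± 0.17, adjusted p = 0.0047). Gnmt, which disposes of methyl groups with glycine, was at 1059.8 to 1423 CPM on HFD and 1705 to 2235 CPM on ND (-0.70 ± 0.13, adjusted p = 0.00027). Hal and Haao, for histidine and tryptophan breakdown, fell by 0.66 (SE 0.13, adjusted p = 0.001) and 0.44 (SE 0.09, adjusted p = 0.0015). Aass, for lysine, fell by 0.44 (SE 0.10, adjusted p = 0.0036). The summed level of the 31 genes was 21463 to 26932 CPM on HFD and 27430 to 32541 CPM on ND. The count was 8 to 12 when 1 young library was left out, and in the young libraries alone, where 10.3% of all genes counted alike were lower and 11.1% higher, 17 were lower and 2 higher. Asns, which makes asparagine and was looked up after its values were seen, was not called (-1.18 ± 0.68, adjusted p = 0.27).

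Of 16 genes for branched-chain amino acid breakdown counted alike, 5 fell (4.83% over all genes counted alike), with 13 negative and a median of -0.13. Acadsb, an acyl-CoA dehydrogenase of the isoleucine path, was at 136 to 182 CPM on HFD and 207 to 249.9 CPM on ND (-0.60 ± 0.10, adjusted p = 0.00022, edgeR). Dbt, the core of the branched-chain ketoacid dehydrogenase, fell by 0.45 (SE 0.11, adjusted p = 0.0044). Both kept their call with any 1 library left out. The other 3 called members, Acad8, Hibadh and Ivd, lay close to the threshold, and the count was 2 without young HFD replicate 1 or 5 or young ND replicate 2 or 3 and 3 without young HFD replicate 3 or 4 or young ND replicate 4. In the young libraries alone 6 were lower and 2 higher (10.3% and 11.1% over all).

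Bile acid genes followed the same direction. Of 21 counted alike, 6 fell (4.83% over all genes counted alike) and 17 were negative, with a median of -0.28. The summed level was 6608 to 8098 CPM on HFD and 8450 to 9467 CPM on ND. Cyp27a1, which starts the acidic path of bile acid synthesis, was at 341, 452, 410.2, 365 and 461 CPM on HFD and at 582, 618, 617 and 617 CPM on ND (-0.59 ± 0.10, adjusted p = 0.00015, edgeR). Cyp7b1, the next enzyme of that path and a male-biased gene, was at 87.6, 203, 123, 173 and 137 CPM on HFD and at 265, 305, 357 and 276 CPM on ND (-1.06 ± 0.27, adjusted p = 0.0082). Slc27a5 and Baat, which activate bile acids and join them to taurine or glycine, fell by 0.44 (SE 0.10, adjusted p = 0.0041) and 0.38 (SE 0.10, adjusted p = 0.008). Cyp7a1, the rate-limiting enzyme of the classical path, was spread from 62.5 to 199 CPM on HFD and from 41.3 to 322 CPM on ND and was not called (-0.46 ± 0.53, adjusted p = 0.63). Cyp8b1, which sets the share of cholic acid, was at 379 to 470.2 CPM on HFD and 520.0 to 785 CPM on ND without passing the test (-0.63 ± 0.28, adjusted p = 0.14). The count was 4 or 5 with 1 young library left out. In the young libraries alone 9 were lower and 2 higher (10.3% and 11.1% over all), and without old HFD replicate 4 Abcb4, the phospholipid exporter of bile, was higher (0.34, adjusted p = 0.029).

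Male-biased genes, kept high in male liver by pulsed growth hormone, were mostly lower on HFD. Of 13 counted alike, 7 fell (4.83% over all genes counted alike), 11 were negative, and the median fold change was -0.70. Of the 7, 5 were in the stricter set. Ugt2b1, a glucuronosyltransferase of the stricter set (chromosome 5, bases 86916639 to 86926503), was at 309, 424, 383, 371 and 243 CPM on HFD and at 679.9, 861, 887 and 828 CPM on ND (-1.23 ± 0.27, adjusted p = 0.0024, edgeR). Every HFD library lay below every ND library. C8b, a component of the complement membrane attack complex, was at 92.4, 153, 138, 158 and 193 CPM on HFD and at 252, 267, 298 and 267 CPM on ND. Its call (-0.89 ± 0.26, adjusted p = 0.02) was lost without young HFD replicate 1 (adjusted p = 0.0504) or young ND replicate 3 (adjusted p = 0.053). Susd4, a complement regulator, fell by 0.85 (SE 0.26, adjusted p = 0.032) and lost its call when any 1 library other than young HFD replicate 2 or young ND replicate 1 was left out (adjusted p from 0.0504 to 0.084). The list count was 3 without young HFD replicate 1 or young ND replicate 3. It was 4 without young HFD replicate 3 or 4 or young ND replicate 2, and 7 in the young libraries alone (10.3% over all). Over the list's 14 genes counted alike, 1 of them too low to test, the summed level was 1481 to 2677 CPM on HFD and 3539 to 4182 CPM on ND, with young HFD replicate 1 the lowest.

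Of 11 female-biased genes counted alike, 5 rose and 1 fell (5.5% and 4.83% over all genes counted alike), with a median of 0.58. The summed level of the 12 listed genes counted alike, 1 of them too low to test, nonetheless overlapped, at 412 to 564 CPM on HFD and 446 to 648 CPM on ND. Nipal1, a magnesium carrier relative, was at 13.3, 9.78, 9.20, 5.04 and 8.50 CPM on HFD and at 2.60, 2.27, 1.75 and 0.825 CPM on ND (2.33 ± 0.37, adjusted p = 9.6e-05, edgeR). Hao2, a hydroxyacid oxidase of the stricter set, was at 5.51, 3.79, 3.61, 3.19 and 2.26 CPM on HFD and at 1.01, 0.909, 0.759 and 1.35 CPM on ND (1.86 ± 0.56, adjusted p = 0.025). Its values did not overlap, yet the call was lost without young HFD replicate 1 or young ND replicate 1, 2 or 3 (adjusted p from 0.062 to 0.087). Lifr, the receptor for leukaemia inhibitory factor, went the other way and fell by 0.82 (SE 0.21, adjusted p = 0.0087). The count of higher members was 2 without young ND replicate 1 or 3. It was 3 without young HFD replicate 1 or 2 or young ND replicate 4, and 7 in the young libraries alone (11.1% over all). Srd5a1, the steroid 5-alpha reductase, was among the 10 lowest genes counted alike, at 46.1, 72.4, 71.1, 65.7 and 59.1 CPM on HFD and 133, 147, 163 and 133 CPM on ND (-1.20 ± 0.18, adjusted p = 5e-05).

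Genes of drug metabolism were among those with the lowest fold changes, several of them genes that the tables count differently. Cyp2b10, a target of the receptor CAR, was at 0.360, 0.759, 0.233, 0.827 and 0.178 CPM on HFD and at 8.96, 6.09, 4.86 and 9.08 CPM on ND (-3.99 ± 0.51, adjusted p = 6.8e-06, edgeR). Cyp3a11, the main CYP3A enzyme of mouse liver, was at 484, 352, 380.2, 506 and 241 CPM on HFD and at 1949, 1839, 2093 and 1936 CPM on ND (-2.32 ± 0.57, adjusted p = 0.007). Both share sequence with their paralogues, so reads can be split between them. Paralogues of Cyp2b10 went the other way. Cyp2b9, a female-biased P450, was at 138 to 267 CPM on HFD and 5.20 to 15.4 CPM on ND (4.14 ± 0.77, adjusted p = 0.00069), and Cyp2b13 was at 8.74 to 22.0 CPM on HFD and 0 to 0.300 CPM on ND. Whether counting moved reads between these genes was not tested. Cyp2c55, which has an exon of another gene on the opposite strand, fell by 2.73 (SE 0.31, adjusted p = 1e-06), and Gsta2, a glutathione transferase with close paralogues, fell by 1.94 (SE 0.63, adjusted p = 0.041), a call lost without any 1 library other than young ND replicate 1 (adjusted p from 0.061 to 0.092) and with no filter on low counts (adjusted p = 0.062). The same rule for the 5 lowest genes not counted alike also named 2 outside drug metabolism. These were Srgap3, at 1.14 to 1.98 CPM on HFD and 11.6 to 16.3 CPM on ND (-3.15 ± 0.21, adjusted p = 3e-10), and Psme2b, a close paralogue of the proteasome activator Psme2, at 7.81 to 11.3 CPM on HFD and 37.2 to 41.0 CPM on ND (-2.09 ± 0.12, adjusted p = 2.4e-11). Of 6 P450 genes counted alike 1 fell. This was Cyp2c44, an epoxygenase of the stricter set (chromosome 19, bases 44005022 to 44029247), at 144, 215, 179, 177 and 147 CPM on HFD and at 300.2, 404, 443 and 329 CPM on ND (-1.10 ± 0.13, adjusted p = 2e-06). Over all 41 tested P450 genes 9 were higher and 10 lower, set against 14.9% higher and 4.07% lower over all tested genes.

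Of 25 conjugation and antioxidant genes counted alike, 3 rose, 3 fell (5.5% and 4.83% over all genes counted alike) and 18 were negative, with a median of -0.19. Nat8f5, an acetyltransferase of a clustered family, had the lowest fold change of the genes counted alike that the rule named. It was at 2.71, 3.26, 4.35, 4.49 and 2.79 CPM on HFD and at 18.0, 16.6, 15.1 and 19.0 CPM on ND (-2.29 ± 0.38, adjusted p = 0.00017, edgeR). Gstm7, a glutathione transferase, fell by 0.55 (SE 0.09, adjusted p = 0.00017), and Ugt2b1 was the other gene that fell. Hmox1, which degrades haem, rose by 0.66 (SE 0.19, adjusted p = 0.018), a call lost without young HFD replicate 5 or young ND replicate 3 or 4 (adjusted p from 0.051 to 0.061). The count of higher members was 0 without young ND replicate 4 and 1 without young HFD replicate 1 or 3 or young ND replicate 1 or 3. In the young libraries alone 11 of the 25 were lower and 3 higher (10.3% and 11.1% over all), and without old HFD replicate 4 9 were lower (6.04% over all).

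Collagen and other genes of activated stellate cells were higher on HFD. All 24 stellate cell and fibrosis genes counted alike had a positive fold change, with a median of 0.64, and 7 rose, all in the stricter set, where 5.5% of all genes counted alike rose. Col1a1 (chromosome 11, bases 94936224 to 94953042), the main chain of type I collagen, was at 28.5, 11.2, 16.5, 15.4 and 11.9 CPM on HFD and at 3.23, 4.82, 3.15 and 4.54 CPM on ND. The lowest HFD library exceeded the highest ND library, and young HFD replicate 1 was far above the other 4. The log2 fold change was 2.09 ± 0.59 (adjusted p = 0.019, edgeR) and, without that library, 1.80 (adjusted p = 0.05). The call was lost without young ND replicate 1 (adjusted p = 0.055) or 3 (adjusted p = 0.062). Col3a1, of type III collagen, was at 80.5, 43.7, 51.8, 55.4 and 43.6 CPM on HFD and at 19.1, 25.3, 19.0 and 21.2 CPM on ND (1.38 ± 0.40, adjusted p = 0.021). Its call was lost without young HFD replicate 1 or young ND replicate 1, 3 or 4 (adjusted p from 0.055 to 0.065). Col1a2 rose by 1.56 (SE 0.43, adjusted p = 0.017), a call lost without young ND replicate 3 (adjusted p = 0.06). Col6a1 (1.09 ± 0.25, adjusted p = 0.0037) and Col6a2 (1.21 ± 0.31, adjusted p = 0.009), of the fine mesh around cells, kept their calls whichever library was left out.

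Postn, the matrix protein periostin, was at 23.4, 12.7, 15.4, 13.2 and 12.7 CPM on HFD and at 5.01, 7.09, 7.06 and 7.99 CPM on ND (1.19 ± 0.22, adjusted p = 0.0004, edgeR). Young HFD replicate 1 was again the highest, and the other 4 HFD libraries still lay above all 4 ND libraries (0.99, adjusted p = 0.00081 without it). The summed level of the 24 genes was 781 to 1020 CPM on HFD and 570 to 635 CPM on ND. The count of called members was 4 without young ND replicate 3, and 19 in the young libraries alone (11.1% over all). In bulk liver, more or fewer cells of a type and more or less RNA per cell cannot be told apart, and this holds for every marker list here.

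Macrophage markers gave 2 calls. Trem2, a receptor of lipid-associated macrophages, was at 1.19, 0.848, 1.94, 1.34 and 2.35 CPM on HFD and at 0.289, 0.454, 0.455 and 0.525 CPM on ND (1.82 ± 0.40, adjusted p = 0.002, edgeR). Gpnmb, which marks the same cells, was at 0.591 to 1.25 CPM on HFD and 0.0454 to 0.263 CPM on ND, or 1 to 7 counts in each ND library (2.67 ± 0.87, adjusted p = 0.041). That call was lost without young HFD replicate 1, 3 or 5 or any 1 young ND replicate (adjusted p from 0.057 to 0.11). Clec4f, which marks resident Kupffer cells, was at 111 to 183 CPM on HFD and 119.7 to 168 CPM on ND and was not called (0.09 ± 0.14, adjusted p = 0.74). Over the 18 markers counted alike 2 rose, where 5.5% of all genes counted alike did, and 16 were positive, with a median of 0.22. Their summed level overlapped, at 651 to 991 CPM on HFD and 633 to 894 CPM on ND. In the young libraries alone 4 were higher (11.1% over all). None of the 6 neutrophil, 18 T and NK cell, 10 B and plasma cell and 7 cholangiocyte markers tested and counted alike was called by edgeR, DESeq2 or limma voom, and 0 of them had an unadjusted p under 0.05. Without old HFD replicate 4 the neutrophil protease Elane, at 0.155 to 0.475 CPM on HFD and 0 to 0.145 CPM on ND, was called (2.36, adjusted p = 0.033).

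Among endothelial markers 3 of 22 counted alike fell (4.83% over all genes counted alike), with a median of 0.00. Cav1 (chromosome 6, bases 17307640 to 17341328), the coat protein of caveolae, was at 3.27, 3.44, 3.53, 2.72 and 4.31 CPM on HFD and at 8.86, 17.8, 11.5 and 11.6 CPM on ND (-1.84 ± 0.31, adjusted p = 0.00015, edgeR). Each HFD library was below each ND library. Dnase1l3, a nuclease of liver sinusoidal cells and macrophages, was at 63.5 to 71.4 CPM on HFD and 84.2 to 90.9 CPM on ND (-0.40 ± 0.08, adjusted p = 0.0014). The third, Ehd3, fell by 0.50 (SE 0.16, adjusted p = 0.039), a call lost without any 1 library other than young HFD replicate 2 (adjusted p from 0.053 to 0.096). In the young libraries alone 6 fell and 3 rose (10.3% and 11.1% over all), and without old HFD replicate 4 5 fell (6.04% over all).

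**Figure D2:**
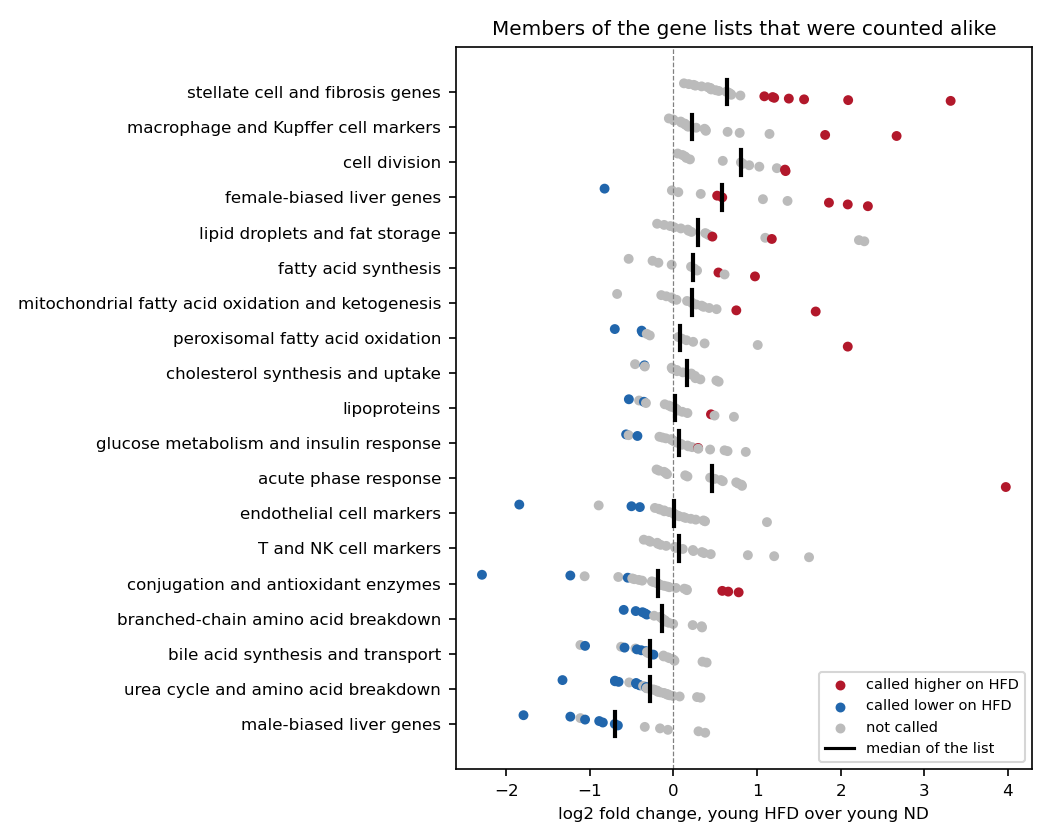
Log2 fold change (x axis, young HFD over young ND) of each gene counted alike in some of the gene lists, where a point is a gene, a black tick the list's median, and red and blue mark genes called higher and lower on HFD. Stellate cell and fibrosis genes lie wholly above 0 with a median of 0.64, and male-biased genes lie mostly below 0 with a median of -0.70.

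Both Cfd and Lcn2, which encode secreted proteins, rose with a wide spread among the HFD libraries. Cfd, the complement protease adipsin, known best from adipocytes, was at 8.56, 17.7, 10.5, 8.94 and 20.2 CPM on HFD and at 0.963, 0.863, 0.493 and 0.863 CPM on ND (4.06 ± 1.12, adjusted p = 0.017, edgeR). The call was lost without young ND replicate 3 (adjusted p = 0.058) and by limma voom (adjusted p = 0.061). The adipocyte markers Adipoq, Plin1 and Lep had 0 or 1 counts in every young library, and Retn had 0 to 3 on HFD and 0 to 5 on ND. Fabp4, a fatty acid binding protein of adipocytes, endothelium and macrophages, was at 11.8 to 23.2 CPM on HFD and 6.27 to 8.96 CPM on ND and was not called (1.10 ± 0.39, adjusted p = 0.062), but was called without old HFD replicate 4 (adjusted p = 8.9e-05). Lcn2, a neutrophil and hepatocyte acute phase protein, was at 29.2, 8.26, 11.1, 46.0 and 107 CPM on HFD and at 4.48, 2.09, 1.94 and 1.91 CPM on ND (3.98 ± 1.18, adjusted p = 0.025). It was the 1 of 16 acute phase genes counted alike that rose, a share near the 5.5% over all genes counted alike. Its call was lost without young HFD replicate 5 (3.21, adjusted p = 0.064) or young ND replicate 2, 3 or 4 (adjusted p from 0.07 to 0.074). Without old HFD replicate 4, 4 of the 16 were higher (6.46% over all). All 6 neutrophil markers tested and counted alike had a positive fold change, with a median of 1.00. Over the 8 listed markers counted alike the summed level overlapped between the diets, at 1.74 to 7.13 CPM on HFD and 1.50 to 5.06 CPM on ND. Hdc, the enzyme that makes histamine, was a steadier case in the stricter set, at 8.73, 11.5, 7.77, 9.73 and 13.8 CPM on HFD and at 2.75, 3.14, 1.86 and 2.10 CPM on ND (2.07 ± 0.24, adjusted p = 1e-06).

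**Figure D3:**
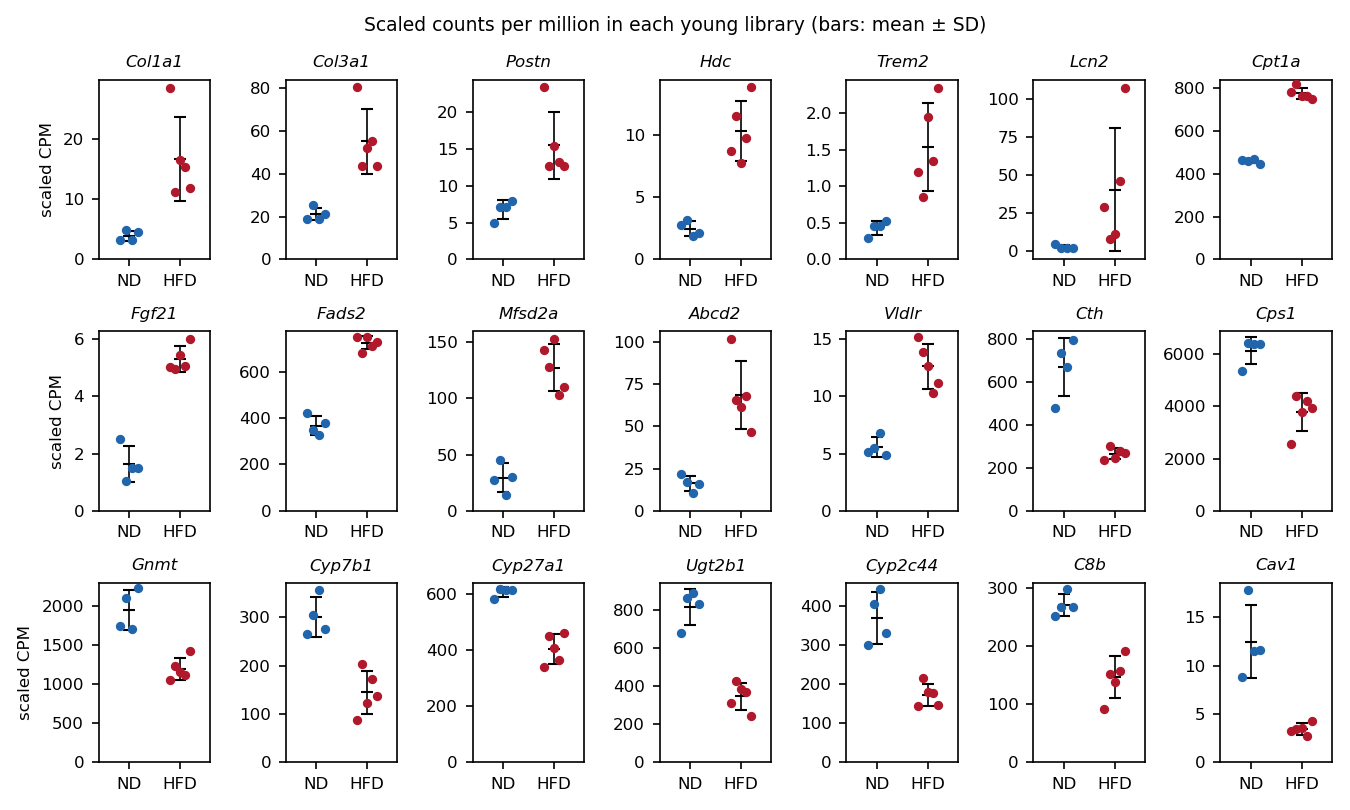
Scaled CPM (y axis of each panel) of genes described in the text in each young library, with blue points for the 4 ND and red points for the 5 HFD libraries and bars for the mean ± SD. In every panel the HFD libraries lie wholly above or wholly below the ND libraries, and young HFD replicate 1 stands highest for Col1a1, Col3a1 and Postn.

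The clock repressor genes Per1 (1.40 ± 0.30, adjusted p = 0.0025, edgeR) and Per3 (1.54 ± 0.34, adjusted p = 0.0028) rose and Clock fell by 0.55 (SE 0.11, adjusted p = 0.00056), with no collection time to set beside them. Of 8 clock genes counted alike 3 rose and 2 fell (5.5% and 4.83% over all genes counted alike), with a median of -0.12. The others called, Per2 higher and Npas2 lower, each lost the call without several single libraries (adjusted p from 0.051 to 0.15). Of 13 cell division genes counted alike, all were positive, with a median of 0.81, and 2 rose (5.5% over all genes counted alike). Ccnb2, the cyclin B of mitosis, was at 1.14, 1.07, 1.51, 2.32 and 1.22 CPM on HFD and at 0.578, 0.727, 0.645 and 0.338 CPM on ND (1.34 ± 0.35, adjusted p = 0.0087). The other, Ccne1, lost its call without young HFD replicate 1, 3 or 4 or young ND replicate 1, 2 or 4 (adjusted p from 0.077 to 0.11). In the young libraries alone 5 of the 13 were higher (11.1% over all). Of 15 lipoprotein genes counted alike 1 rose and 2 fell (5.5% and 4.83% over all), with a median of 0.02. Among them Lipc, the hepatic lipase, fell by 0.53 (SE 0.10, adjusted p = 0.00051). Of 16 cholesterol synthesis genes counted alike 1 fell (Ebp, -0.35 ± 0.08, adjusted p = 0.0026), near the 4.83% over all. Of the 16, 11 were positive, with a median of 0.16. No interferon-stimulated gene of 18 counted alike was called by edgeR, with 17 positive and a median of 0.19. DESeq2 called 1, limma voom called 0, 1 had an unadjusted p under 0.05, and 2 were higher in the young libraries alone (11.1% over all).

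To ask whether the diet difference was the same in the young and the old mice, the difference in old liver was set against that in young liver in the same model. Since both ages were counted in the same pair of tables, a constant counting difference cancels in this test. Since Nnt and Wdfy1 separated all old from all young libraries, a difference of age and a difference of substrain cannot be told apart in it. Of all tested genes 18 were called (0.126%), 11 of them counted alike, and 7 of these were also called in young liver. All 7 were chosen after their values were seen. Without old HFD replicate 4 the test called 37 genes, among them all 18, and the 7 kept their direction (adjusted p from 0.0063 to 0.041). Ablim3, an actin-binding LIM protein of the stricter set, was at 15.5, 19.1, 18.0, 16.1 and 21.8 CPM in young HFD and at 34.3, 44.0, 33.1 and 41.4 CPM in young ND. It fell by 1.08 (SE 0.15) in young liver, with an old value of 0.41 ± 0.15 (adjusted p = 0.045) and a difference of 1.49 ± 0.21 (adjusted p = 0.011, edgeR interaction). The old value was 0.27 and was not called without old HFD replicate 4 (adjusted p = 0.17). Lad1, a basement membrane protein, was at 4.90, 6.34, 5.82, 6.42 and 5.44 CPM in young HFD and at 8.81, 9.22, 8.01 and 13.9 CPM in young ND. It fell by 0.79 (SE 0.21) in young and rose by 1.21 ± 0.23 in old liver (difference 2.00 ± 0.31, adjusted p = 0.012), although its young call was lost without young ND replicate 4 (adjusted p = 0.07).

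Grk5, a kinase of G protein-coupled receptors, was at 4.67 to 5.76 CPM in young HFD and 7.24 to 13.8 CPM in young ND, so it fell in young liver (adjusted p = 0.00077). Its old value was 0.56 ± 0.20, a call (adjusted p = 0.041) lost without old HFD replicate 4 (adjusted p = 0.075), and the difference was 1.56 ± 0.28 (adjusted p = 0.038, edgeR interaction). Serpina6, the plasma carrier of corticosteroids, went from 178 to 209 CPM in young ND to 277 to 381 CPM in young HFD. It rose by 0.67 ± 0.13 in young liver, and the old difference of -0.28 ± 0.13 did not pass (difference -0.95 ± 0.18, adjusted p = 0.041). Pcdh17, a protocadherin, rose in young liver (1.08 ± 0.15 with an old value of -0.11 ± 0.14, adjusted p of the difference 0.02). Rnf145, a ubiquitin ligase of sterol metabolism, rose in young (0.44 ± 0.11) and fell in old liver (-0.38 ± 0.11, adjusted p of the difference 0.04), and Dtx4 fell in young liver (-0.56 ± 0.10) with an old value of 0.18 ± 0.10 (adjusted p of the difference 0.04). Abcd2 had a young difference of 2.09 and an old one of -0.10, but the test of the 2 did not pass (difference -2.19 ± 0.51, adjusted p = 0.11). Fasn differed likewise (-0.02 in young and -1.53 in old liver, adjusted p of the difference 0.34). For Col1a1 the old value was 1.39 ± 0.52 and the difference between ages -0.70 ± 0.78 (adjusted p = 0.77).

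**Figure D4:**
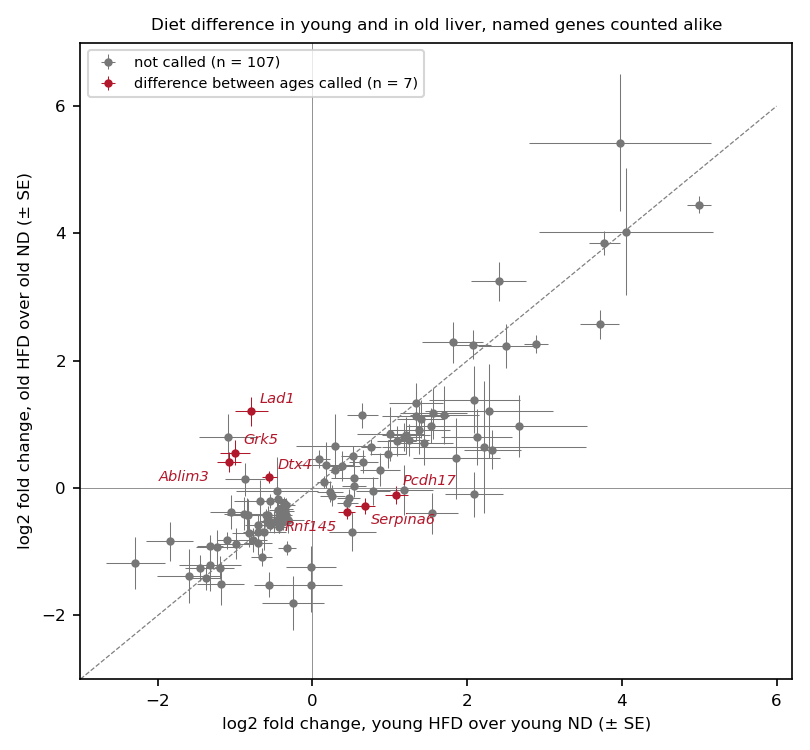
Log2 fold change (HFD over ND, bars are standard errors) of the named genes counted alike, in young liver on the x axis and in old liver on the y axis, with a dashed line of equal values. Red points are the 7 genes whose difference between ages was called, of which Ablim3, Grk5, Lad1 and Dtx4 fell in young liver, while the other named genes were not called.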

How the data were processed

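The authors aligned reads with STAR to mm10 (GRCm38), and per the file headers HOMER counted them over the exons of 1 transcript per gene, although the methods name HTSeq and DESeq2. The submitters' processing notes name STAR and HOMER. The authors deposited whole-number counts without normalisation, as 1 table of HFD and 1 of ND libraries, the latter counted on the gene's strand only. No sample column was left unused (0).

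Here the tables were joined by symbol (24537 genes). Genes were compared with GENCODE release M21 to find those counted alike, on which the scaling factors (TMM) were set. All 18 libraries in 4 groups were fitted with edgeR 4.0.16 (R 4.3.3, filterByExpr, robust quasi-likelihood, no covariate), leaving 14275 genes, and the young HFD minus young ND contrast was two-sided with Benjamini-Hochberg adjustment over all tested genes. CPM values use library sizes times the TMM factors, and group means are ± SD. Totals of 20253719 to 36427856 counts per young library set the counting precision. The script's calls were tested on simulated data.

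Members and the 32 gene lists were chosen with earlier results of these data known. Named were key genes of the lists, up to 5 called members of each list with the lowest p, the 10 highest and 10 lowest called genes counted alike whose young mean reached 2 log2 CPM and whose groups did not overlap, and the 5 lowest not counted alike. The same rule was repeated for the stricter set at a listed length of at least 200 bases, and a few genes were added after their values were seen. Alternatives were DESeq2 1.42.0, limma 3.58.1 voom, other scalings and filters, removal of the 20 highest genes, at least 10 counts in every library, fits to the young libraries or to genes counted alike, a stricter definition of counted alike, the replicate number as a block, and each of the 9 young libraries left out. The length minimum of 200 bases and the fit without old HFD replicate 4 were added after seeing the data. Replicate pairs differed by more than counting noise (chi-square per gene 14.3 to 64.7), so none was counted as a duplicate. Results for a few genes are not reported here.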

Additional observations from a re-analysis of the deposited data

Results flagged for a closer look

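Single libraries stood apart from their group in 13 of 252 examinations of a named gene in a young group. The criterion by itself marks about 1 in 20 groups, but the genes are not independent and the cases were not spread evenly, with young ND replicate 1 the library in 7 of them and young HFD replicate 1 in 3. Young ND replicate 1 was apart from the other 3 ND libraries for Cat (3810.1 CPM), Cps1 (5344 CPM), Cyp27a1 (582 CPM), Ivd (176 CPM), Susd4 (27.5 CPM), Lcn2 (4.48 CPM) and Pdk4 (36.6 CPM). For the first 5 it was the lowest ND library and for the last 2 the highest. Young HFD replicate 1 was the highest HFD library for Atf3 (3.74 CPM) and Postn (23.4 CPM) and the lowest for Susd4 (11.2 CPM). Young HFD replicate 3 was low for Pygl (345 CPM), young HFD replicate 4 low for Gstm7 (42.7 CPM), and young ND replicate 4 high for Cidea (2.40 CPM).

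The diet difference was not the same in the old as in the young mice, which also differed at the substrain markers Nnt and Wdfy1, by the interaction test in edgeR, for Ablim3 (old minus young 1.49, log2), Dtx4 (0.73), Grk5 (1.56), Lad1 (2.00), Pcdh17 (-1.20), Rnf145 (-0.82) and Serpina6 (-0.95). The adjusted p-values are given with the comparison above.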

How the results depend on the processing

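Of the 103 called genes among the 126 named, 67 kept their call under every alternative run and 36 lost it under at least one, 7 that were not called gained a call, and no called gene changed sign. Of the 36, 27 were lost under an alternative that kept all libraries, with 23 lost in a fit to genes counted alike only, 14 with a replicate block, 7 with no filter, 7 with upper-quartile scaling and 1 by limma voom. The number of calls moved more than their direction, and the cause was not tested. Leaving out 1 young library at a time gave 2200 to 2607 called genes (1809 to 2052 higher, 391 to 555 lower), of which 486 to 722 were counted alike (256 to 378 higher, 230 to 344 lower), each lowest without young ND replicate 3. Scaling over all genes gave 898 lower genes, 557 of them counted alike, and turned the higher share of calls counted alike from 53.2% to 38.0%, with a median shift of -0.04. Without old HFD replicate 4 there were 3022 calls (2293 higher, 729 lower), 950 of them counted alike (491 higher, 459 lower), and 37 rather than 18 genes in the test between ages. limma voom called 4286 genes, 1307 lower, and 1637 counted alike (842 higher, 795 lower). The young libraries alone gave 4073 genes, 1213 lower, and 1546 counted alike (805 higher, 741 lower). At least 10 counts in every library left 1368 higher genes, since fewer genes were tested. A fit to genes counted alike only called 496 of them (270 higher, 226 lower), against 778 in the main fit. There the model and the adjustment used those genes alone, whereas the main adjustment ran over all tested genes. The stricter definition gave 284 calls (136 and 148), counted over fewer genes. That definition with at least 200 bases, added after seeing the data, gave 247 (132 and 115). DESeq2 called 3006 genes. Same-numbered replicates did not deviate together (correlations 0.066, -0.015, -0.017 and -0.069), and a replicate block gave 2703 calls, 778 counted alike. Signs turned only for genes that were not called. Fasn became 0.0068 (upper-quartile scaling), 0.073 (voom) and 0.14 (replicate block), and ran from -0.24 to 0.23 without single libraries. G6pc became 0.0080 (upper-quartile scaling) and 0.11 (replicate block), and ran from -0.27 to 0.19. Pck1 became -0.011 with the replicate block and ran from -0.055 to 0.35. Without single libraries Cyp7a1 ran from -0.78 to 0.15, Igfbp1 from -0.019 to 0.74, Thrsp from -0.49 to 0.088 and Clec4f from -0.0079 to 0.19. Low counts limit genes such as Gpnmb, and no alternative separates diet from counting table.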

Other observations

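Genes of liver zonation and glucose metabolism are set here beside all genes counted alike, of which 5.5% were higher and 4.83% lower. Of 15 pericentral hepatocyte genes counted alike 1 fell, with a median log2 fold change of -0.11, and of 12 periportal genes 3 fell and 1 rose, with a median of -0.04. The periportal genes that fell were Hal and Cps1, described above, and Sult5a1, a sulfotransferase, at 14.1, 12.1, 5.59, 11.7 and 11.4 CPM on HFD and at 18.6, 20.8, 15.6 and 25.2 CPM on ND (-0.87 ± 0.26, adjusted p = 0.021, edgeR), a call lost without young ND replicate 4 (adjusted p = 0.074). Of 23 glucose metabolism and insulin response genes counted alike 1 rose and 2 fell, with a median of 0.06. Those that fell were Pygl, the liver glycogen phosphorylase (-0.43 ± 0.14, adjusted p = 0.039), and Igfbp2, a binding protein of insulin-like growth factors (-0.57 ± 0.19, adjusted p = 0.047), and neither was called without young HFD replicate 1 or any 1 young ND replicate (adjusted p from 0.054 to 0.11). Igfbp2 also lost its call without young HFD replicate 3, 4 or 5, and Pygl in the young libraries alone (adjusted p = 0.079). Pcx, the carboxylase that supplies oxaloacetate for gluconeogenesis, was at 826 to 924 CPM on HFD and 680.1 to 734 CPM on ND (0.30 ± 0.09, adjusted p = 0.022). Its call was lost without young HFD replicate 5 or any 1 young ND replicate other than replicate 4 (adjusted p from 0.057 to 0.085). Pck1 and G6pc, the other enzymes of that path, overlapped between the diets and were not called (adjusted p = 0.8 and 0.98).

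Of 13 hepatocyte markers counted alike 1 rose and 1 fell (5.5% and 4.83% over all genes counted alike), with a median of -0.03. The one that rose, Apoa1, lost its call without young HFD replicate 1 or 5 or young ND replicate 2, 3 or 4 (adjusted p from 0.053 to 0.095). The summed level of the 13 was 101474 to 126712 CPM on HFD and 97975 to 110043 CPM on ND. In young liver the substrain marker Nnt was at 177 to 207 CPM on HFD and 162 to 189 CPM on ND (0.15 ± 0.09, adjusted p = 0.28), whereas in old liver it was at 49.3 to 64.3 CPM on HFD and 46.0 to 58.2 CPM on ND. Apoa4, a lipoprotein of the gut and of fat-laden liver with an exon on the opposite strand, was at 695 ± 214 CPM (SD, n = 5) on HFD and 186 ± 22.0 CPM (SD, n = 4) on ND (edgeR 1.90 ± 0.25, adjusted p = 7.7e-06), with an old difference of 1.89 ± 0.24.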
